A study of Drosophila melanogaster with 16 samples.

Results

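The genes described here encode the proteins of the cytosolic ribosome in Drosophila S2 cells, a macrophage-like line derived from embryos, after knock-down of the RNA-binding protein Imp. They were taken by symbol alone: every gene in the count table whose symbol starts with RpL or RpS followed by a digit or by P, which gave 89 of 9977 genes, 53 RpL and 36 RpS. The mitochondrial ribosomal proteins (mRp symbols) were left out by this rule, as were the 40S proteins sta and Rack1. Cells received 40 µg/ml of dsRNA against imp or, as the control, against luciferase, a sequence that fly cells do not have, with repeated daily additions, and were harvested on day 3. There were 3 poly(A)-selected RNA-seq libraries per treatment, all from unmodified S2 cells. The labels call the material cytoplasmic mRNA, whereas the extraction text describes total RNA. The study's methods state that triplicates were made on different days and treat the replicates as paired, so same-numbered libraries are called a pair below. The methods call the triplicates biological, the labels name no separate cultures, and p-values measure the spread between these libraries only.

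The ribosome has a small 40S subunit, which reads the mRNA, and a large 60S subunit, which joins the amino acids, and most RpS and RpL proteins are present once per particle, the stalk proteins RpLP1 and RpLP2 being exceptions. Ribosomal protein mRNAs are short, abundant and, in growing cells, made in similar amounts, because the subunits need their proteins in equal numbers. Flies that lack one copy of a ribosomal protein gene often show the Minute phenotype, with slow development and thin bristles. Drosophila carries a few duplicated ribosomal protein genes, and in several of these pairs 1 copy is used mainly in the germline.

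The libraries held between 1081882 counts (imp dsRNA replicate 2) and 5463535 counts (imp dsRNA replicate 1). Imp itself, the targeted mRNA, gave 1290, 359 and 580 counts in the imp dsRNA libraries, against 1816, 1836 and 1673 in the controls. Imp mRNA was lower in 3 of 3 pairs, by a log2 fold change of -1.18 ± 0.18 (SE), with an adjusted p of 0.113 in edgeR's quasi-likelihood test with the pair as a block. Of the hemocyte markers, Cg25C gave at least 3848 counts in every library, and srp, which encodes the GATA factor of the blood lineage, at least 816. Others were low, with 4 to 45 counts per library for Hml, 7 to 40 for eater and at most 2 for Sr-CII. Of 7 germline and ovarian markers 3 reached 20 counts summed over the 6 libraries, led by piwi with 2 to 45 counts per library. From the same list vas, nos and tj gave at most 2 per library. Of the neuron and muscle markers, elav gave 67 to 291 counts per library and Mef2 71 to 285, whereas Mhc gave at most 1. The hemocyte marker list, with 20 counts or more for 10 of its 11 genes, summed to between 6727 and 12913 CPM (counts scaled to library size) after imp dsRNA and between 5561 and 7361 after luciferase dsRNA. A few genes dominate this sum: in imp replicate 3 Cg25C had 5534.5 CPM, Fer1HCH 3571 and vkg 2574. Of the 10 tested, 6 were higher after imp dsRNA in all 3 pairs (background 11.3%) and 1, Lac, was lower in all 3 (background 12.2%). The part of this list in the results below was not tested.

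The ribosomal protein genes took between 14.7% and 22.5% of all counts of a library. After imp dsRNA the share was 17.1% in replicate 1, 14.7% in replicate 2 and 21.3% in replicate 3. After luciferase dsRNA it was 22.5%, 15.8% and 16.3% in the same order. The libraries with the high shares were thus luciferase replicate 1 and imp replicate 3, 1 of each treatment, and the groups overlapped. Counting error was far smaller than these differences, with a Wilson 95% interval of 21.2% to 21.3% for imp replicate 3 (counting error only, since PCR copies of 1 molecule may be counted). The log2 ratio of the share, imp over luciferase, was -0.39, -0.11 and 0.38 in pairs 1, 2 and 3, a mean of -0.04 ± 0.39 (SD, n = 3 pairs). An exact two-sided sign-flip test gave p = 0.75, and with 3 pairs it cannot go below 0.25. In bulk RNA, a lower share from fewer cells of a kind and from less RNA per cell cannot be told apart. The shares of both subunits moved in the same direction in each pair. 60S genes made up 57.1% to 60.1% of the family's counts, lowest in imp replicate 3 and highest in luciferase replicate 1.

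**Figure D1:**
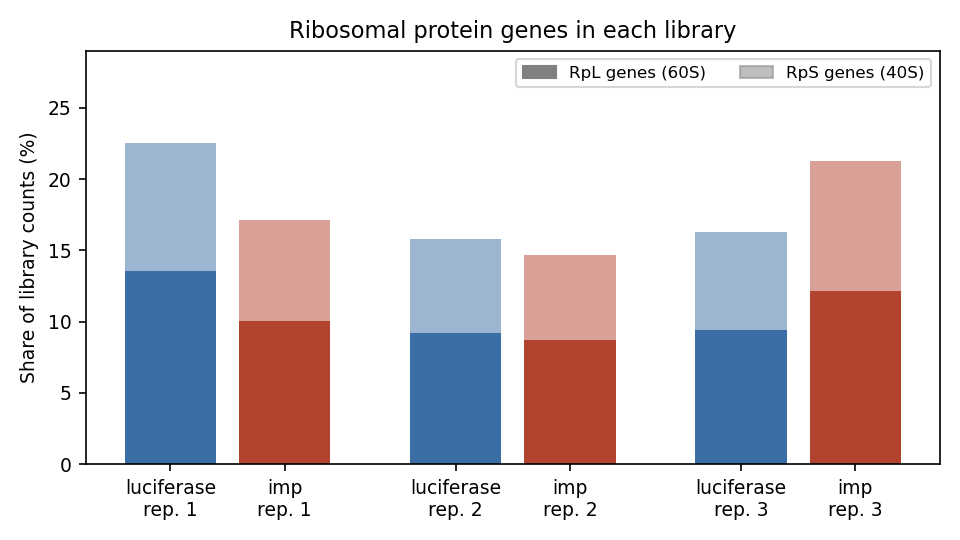
Share of each library's counts (y axis, %) taken by the RpL genes (dark) and the RpS genes (pale), with luciferase dsRNA in blue and imp dsRNA in red and the pairs side by side. Luciferase replicate 1 (22.5%) and imp replicate 3 (21.3%) stand above the other 4 libraries, which lie between 14.7% and 17.1%.

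Levels between genes were compared per kilobase of annotated exon. The median gene of the family had 1940.4 CPM per kb, against 20.0 for the median tested gene outside it, and 72 of the 89 members had at least 1000 CPM per kb. The highest was RpL41, which encodes the smallest ribosomal protein, 25 residues long in the annotation, at 8909.9 CPM per kb. RpL23 (60S, at the subunit interface) followed at 7054 CPM per kb, and RpS27A, whose protein is made as a fusion with ubiquitin, at 6475. RpS20 of the 40S head had 5764 CPM per kb and RpS23, which lies at the decoding centre, 5598. The steps between these neighbours are small beside the spread over libraries: RpS20 ran from 2231 to 4894 CPM before division by length, and RpS23 from 3739 to 7026. In BDGP6, the spans of 7 members overlap another gene on the same strand, RpS27A, RpS6 and RpL22 among them. Small nucleolar RNA genes, which 28 members host, and transposable elements were left out of that number. Reads in an overlap were counted for neither gene, so the levels of members with either kind of overlap may be understated.

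At the other end, 5 members did not reach the filter for testing, and 84 did. RpL22-like, a copy of RpL22 expressed mainly in the testis, had 2 counts in imp replicate 1 and 0 in the other 5 libraries. RpL37b had a single count, in luciferase replicate 2, and RpS10a had at most 3 counts in any library. RpS5b had between 0 and 3 counts. RpS19b was detected in every library, with 31, 2 and 5 counts after imp dsRNA and 12, 8 and 7 in the luciferase dsRNA libraries. A count of 0 in the shallowest library allows a level of up to 2.77 CPM before TMM scaling (3 counts of the total). Next above these came RpS15Ab at 66.7 CPM per kb, RpL7-like at 129.7, RpLP0-like at 185, and RpL34a and RpL24-like, both at 344. The yeast counterparts of RpL7-like, RpLP0-like and RpL24-like act in ribosome assembly rather than in the finished particle.

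**Figure D2:**
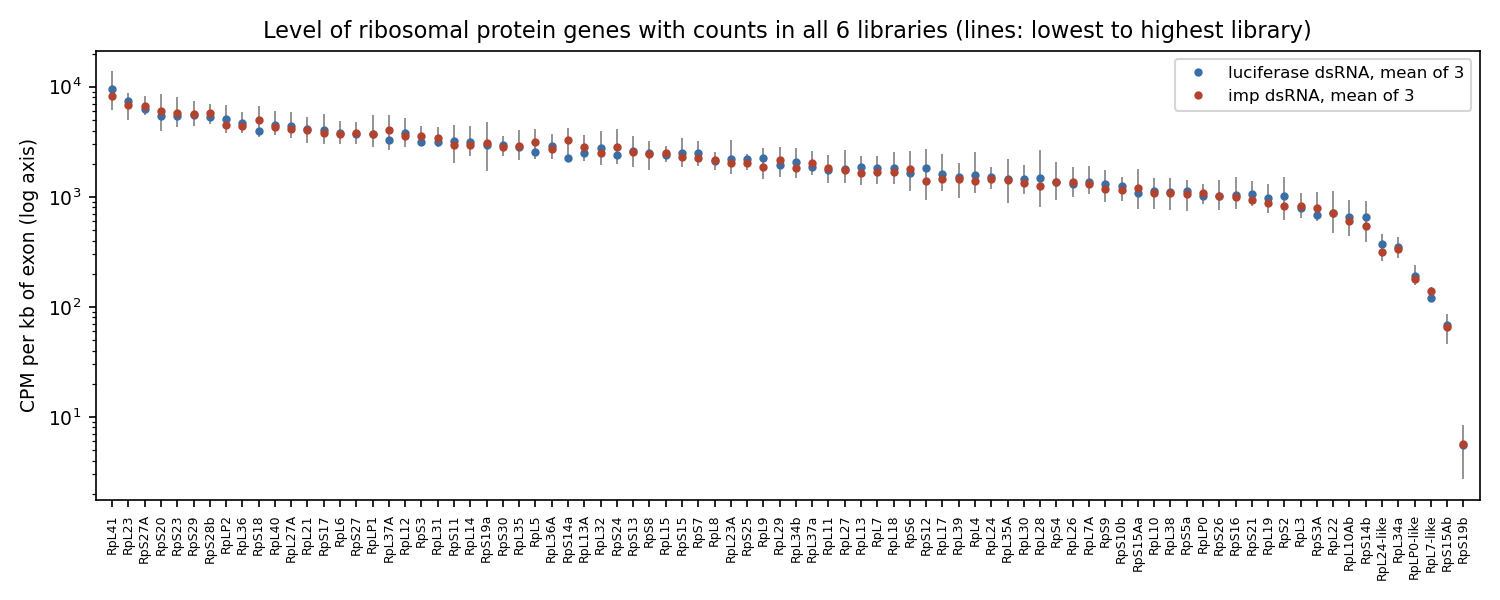
Mean CPM per kb of exon (y axis, log scale) of the members with counts in all 6 libraries (1 member not drawn), in descending order, for luciferase dsRNA (blue) and imp dsRNA (red), with a grey line from the lowest to the highest library. Of the 89 members 72 lie at or above 1000 CPM per kb, and the minor copies and the -like genes drawn fall away at the right.

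RpL5 gave the most counts of the family, from 4.8% to 7.0% of its total, and its annotated exons span 3835 nt, so per kilobase it ranked 28th. Its protein carries 5S rRNA into the 60S subunit together with RpL11. RpL5 had 10306, 10035 and 15974 CPM after imp dsRNA, compared with 11239, 8453 and 9443 after luciferase dsRNA, so the groups overlapped. Its partner RpL11 had 1720.3, 1367 and 2459 CPM against 2282, 1438 and 1600.0. The fitted log2 fold changes were 0.29 ± 0.29 for RpL5 and 0.04 ± 0.23 for RpL11 (SE), with unadjusted p of 0.323 and 0.849 in edgeR's test.

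No member passed the test between imp dsRNA and luciferase dsRNA. At an adjusted p of 0.05, 0 of the 84 tested members were called, on a background of 0 of 6526 genes (0%), and the smallest adjusted p among the members was 0.999. DESeq2 and limma-voom called 0 members as well, beside 1 and 0 of all genes. Each had 1 member at an unadjusted p under 0.05 (backgrounds 0.688% of genes in DESeq2 and 3.02% in limma-voom). In the edgeR fit, at an unadjusted p under 0.05, 1 member was higher (background 1.62% of genes) and 0 were lower (background 1.26%). The fitted changes ran from -0.38 to 0.50 on the log2 scale, 33 positive and 51 negative, with a median of -0.05 beside -0.01 over all tested genes. The median SE was 0.23 for members and 0.21 for all genes. Imp itself, at -1.18 ± 0.18 (SE), was not called in this fit, with an adjusted p of 0.113 in edgeR's test. A change several times its SE could thus go uncalled with these libraries.

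**Figure D3:**
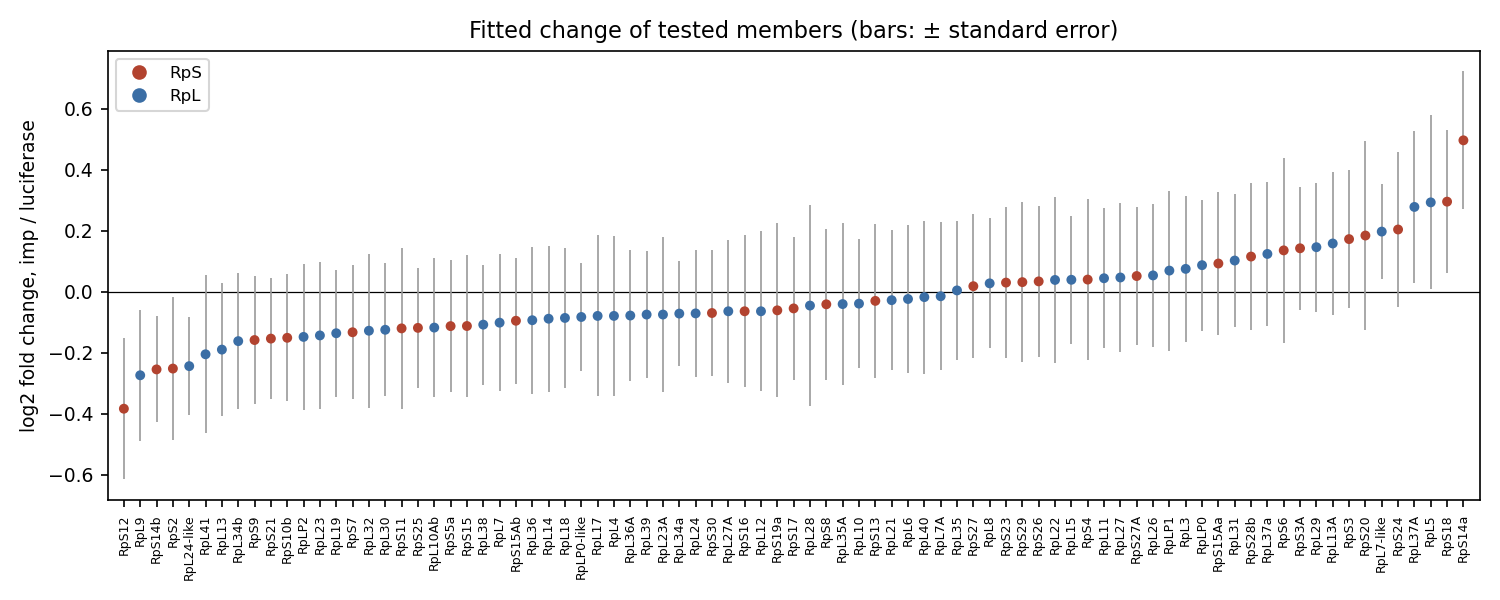
Fitted log2 fold change, imp over luciferase (y axis), of the tested members (1 of the 84 not drawn) in ascending order, RpS in red and RpL in blue, with bars of ± 1 SE from the edgeR fit. The values run from -0.38 (RpS12) to 0.50 (RpS14a), and none passed the adjusted threshold.

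RpS14a was the member with the smallest p. It encodes a 40S protein of the platform, next to the mRNA exit. It had 2504, 2389 and 3703 CPM after imp dsRNA, against 2165, 1946 and 1866 in the controls. Every imp library lay above every luciferase library, which held for 1 of the 84 members in this direction (background 2.8%) and for 0 in the other (background 3.39%). The log2 fold change was 0.50 ± 0.23 (SE), for which edgeR's test gave an unadjusted p of 0.0473 (adjusted p of 0.999). The pair differences were 0.21, 0.30 and 0.99. RpS14a and RpL7-like were the 2 members higher in all 3 pairs (background 11.3%), and 1 member, RpS25, was lower in all 3 (background 12.2%), by -0.34, -0.01 and 0.00 in pairs 1, 2 and 3.

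RpS14a has a tandem neighbour, RpS14b, that encodes the same protein. In the BDGP6 annotation RpS14a lies on chromosome X from 7933742 to 7934677 and RpS14b from 7934898 to 7935792, both on the plus strand and each with 151 codons. RpS14b had 363, 232 and 379.7 CPM after imp dsRNA and 546, 283 and 348 in the luciferase dsRNA libraries, a log2 fold change of -0.25 ± 0.17 (SE, unadjusted p = 0.167 in edgeR's test). RpS14b made up 12.7%, 8.86% and 9.3% of the counts of both copies after imp dsRNA, compared with 20.1%, 12.7% and 15.7% after luciferase dsRNA. The ratio of RpS14a to RpS14b was higher after imp dsRNA in each pair, by 0.80, 0.58 and 0.86 on the log2 scale (mean 0.75 ± 0.15, SD, n = 3 pairs). The exact sign-flip p was 0.25, the smallest that 3 pairs allow, and 0.375 after adjustment over the 6 pairs of genes compared. The copies are known as near-identical genes, so how reads were split between them by the authors' mapping is uncertain.

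In the other 5 pairs of genes compared the same gene gave more counts in all libraries. Of these pairs, those with RpL7-like, RpLP0-like and RpL24-like hold a gene whose yeast counterpart acts in assembly, not a second copy. RpL34a made up 9.81% to 12.0% of the RpL34 counts after imp dsRNA and 9.29% to 12.7% after luciferase dsRNA, so the ranges overlapped. RpS15Ab made up 3.59% to 4.41% of the RpS15A counts after imp dsRNA and 4.51% to 4.71% after luciferase dsRNA, with Wilson intervals of single libraries that overlap between treatments (3.81% to 4.85% in imp replicate 1 and 3.93% to 5.63% in luciferase replicate 2). RpL24-like, the assembly factor, was 11.4% to 12.0% of the RpL24 counts after imp dsRNA and 12.6% to 13.5% after luciferase dsRNA, and RpLP0-like was 9.46% to 12.3% and 11.5% to 12.5% of those of RpLP0. For RpS15Ab and RpL24-like the 3 imp shares all lay below the 3 luciferase shares. How often this holds for other pairs of genes was not computed. Within pairs 1, 2 and 3 the log2 ratio of the main to the minor gene was higher after imp dsRNA by 0.07, 0.10 and 0.40 for RpS15A, by 0.15, 0.08 and 0.27 for RpL24, and by 0.13, 0.02 and 0.32 for RpLP0. RpL7-like varied most, from 6.71% in luciferase replicate 1 to 15.1% in imp replicate 2. The adjusted exact sign-flip p was 0.375 or more in all 6.

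Among the other members nearest to a change on the higher side, RpS18 of the 40S head had 2994, 2157 and 4088 CPM after imp dsRNA against 2577, 2352 and 2354, a log2 fold change of 0.30 ± 0.23 (SE). RpL37A had 2639, 2492 and 4274 CPM against 3233, 2088 and 2330.2, a change of 0.28 ± 0.25. RpL7-like, at 207, 271 and 269 CPM against 199, 201 and 249, differed by 0.20 ± 0.16. In each of these the treatments overlapped, and unadjusted p ran from 0.23 to 0.286 in edgeR's test.

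On the lower side, RpS12 came first. In flies RpS12 is known for its part in cell competition, in which cells short of ribosomal proteins are removed by their neighbours. It had 840.5, 576 and 1116 CPM after imp dsRNA, against 1679, 771 and 919.5 in the controls, a log2 fold change of -0.38 ± 0.23 (SE, unadjusted p = 0.121 in edgeR's test). RpL9 (-0.27 ± 0.21) and RpS2 (-0.25 ± 0.24), a protein near the entry of the mRNA channel, had unadjusted p of 0.223 and 0.305, and RpL24-like (-0.24 ± 0.16) one of 0.155. Their pair 3 differences were 0.28, 0.14, 0.35 and 0.00, so none of the 4 was lower after imp dsRNA in all 3 pairs.

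The family moved as a block between libraries, a pattern described here after the values were seen. In pair 1 the members were lower after imp dsRNA, with a median log2 difference of -0.52, and 80 of 84 were below 0 (background 50.3% of all tested genes). In pair 3 they were higher, with a median of 0.51 and 83 of 84 above 0 (background 48.8%). Pair 2 lay between, at -0.07, with 59 of 84 below 0. The medians of the tested genes outside the family were 0.00, 0.00 and -0.02 in the same pairs. In all, 79 of 84 members were lower in pair 1 and higher in pair 3, against a background of 29.8%, and 0 showed the opposite. For 77 members (91.7%) the 2 highest libraries were luciferase replicate 1 and imp replicate 3, against 14.1% of all tested genes.

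**Figure D4:**
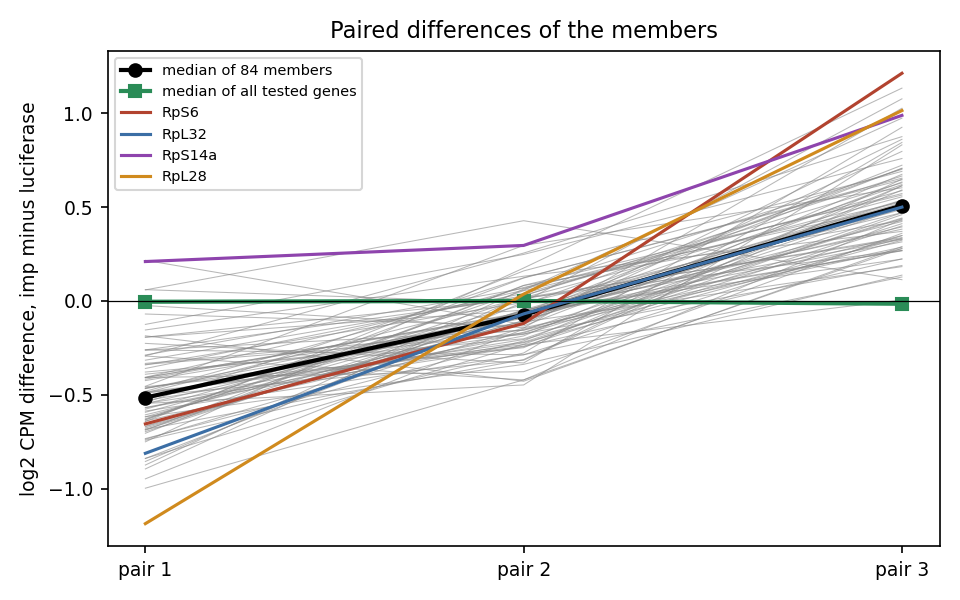
Difference in log2 CPM, imp minus luciferase (y axis), in each pair of libraries (x axis), with 1 thin grey line per tested member, the median of the members in black and the median of all tested genes in green. The member median is -0.52, -0.07 and 0.51, whereas that of all genes is within 0.02 of 0, and RpS6, RpL32, RpS14a and RpL28 are drawn in colour.

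The size of this difference between pairs varied among members. Pair 3 minus pair 1 was above 0 for all 84 tested members, with a mean of 1.02 ± 0.39 (SD across members, which are not independent) on the log2 scale. RpL28, a 60S protein, had the largest value, 2.20, with 1618, 1343 and 2269.5 CPM after imp dsRNA and 3684, 1309.8 and 1123 in the luciferase dsRNA libraries. RpS20 had 1.88. The smallest were RpL7-like at 0.05, RpL15 at 0.31 and RpS25 at 0.34. RpL15, a core protein of the 60S, stayed within 2127 to 2919.8 CPM in all 6 libraries. Its SD of log2 CPM was 0.15, beside a median of 0.34 over the members and 0.28 over all tested genes, and 16 of the 84 members were below the median gene.

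Each part of the ribosome looked at was lower after imp dsRNA in pair 1 and higher in pair 3. For the P stalk, which recruits the elongation factors, RpLP1 had pair differences of -0.64, 0.16 and 0.69, RpLP2 of -0.68, -0.07 and 0.31, and RpLP0 of -0.36, 0.04 and 0.59. For the members fused to ubiquitin or a ubiquitin-like protein, RpL40 had -0.63, 0.05 and 0.53, RpS30 -0.41, -0.07 and 0.27, and RpS27A -0.19, 0.01 and 0.34. The 6 genes at the peptidyl transferase centre and exit tunnel had medians of -0.64, -0.01 and 0.62, and the 7 at the 40S decoding site and mRNA channel -0.49, -0.05 and 0.40. The 40S proteins outside the symbol rule went the same way in pairs 1 and 3, with -0.47, 0.08 and 0.15 for sta and -0.63, 0.02 and 0.20 for Rack1.

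A test of the pair terms in the same fit, which asks whether a gene differs between the pairs in both treatments alike, called 0 of 84 members at an adjusted p of 0.05, beside 207 of 6526 genes (3.17%). At an unadjusted p under 0.05 it gave 2 members (background 14.6%), RpS14b and RpS12. Their p in edgeR's F test were 0.00794 and 0.0255. RpS2, RpL35A and RpL22 came next, with p from 0.0512 to 0.0584. RpL15, RpS14a, RpS28b, RpLP0-like and RpL5 had the smallest F, with p of 0.48 or more. The libraries that stood high for the family thus were of different pairs and of different treatments, and neither term of the fit followed them. Without a filter on low counts, 5 of 89 members (RpL22, RpS12, RpL35A, RpS14b and RpL28) were called, beside 5.34% of all genes.

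The calls depended on pair 3. Without it, 34 of 85 members differed between pairs 1 and 2 (background 13.1%), and RpS12 was called lower after imp dsRNA, with a log2 fold change of -0.72 and an adjusted p of 0.0128 in edgeR's test (background 0.878%). In the same fit 28 members were lower at an unadjusted p under 0.05 (background 6.64%). With pair 1 left out instead, the median change of the members was 0.20, and 75 of 84 were positive. Over the 3 fits that leave out a pair the member median ran from -0.31 to 0.20, and its sign thus followed the pairs used.

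RpS6 and RpL32 served the study as references, RpS6 as the loading control of a western blot and RpL32 (rp49) in quantitative PCR of flies. RpS6 mRNA had 1980.1, 1375 and 3104 CPM after imp dsRNA, compared with 3118, 1495 and 1339 after luciferase dsRNA, and its pair differences were -0.65, -0.12 and 1.21. RpL32 had 1813, 1553 and 2627 CPM against 3183, 1629.6 and 1858, with -0.81, -0.07 and 0.50. Neither passed the test between treatments, with log2 fold changes of 0.14 ± 0.30 and -0.13 ± 0.25 (SE) and unadjusted p of 0.661 and 0.621 in edgeR's test. Scaled to library totals, Imp mRNA in the imp dsRNA libraries was 37.3%, 42.2% and 49.9% of that in the paired luciferase library. Scaled to RpL32 it was 61.9%, 46.1% and 39.5%, and scaled to RpS6 55.5%, 47.8% and 24.1%. The order of the pairs was reversed by either reference, while Imp was below 100% in all 3 pairs under each.

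Exon length moved with the pair pattern. The members are short, with a median of 916 nt of exon against 2201 nt for all tested genes, and 53 of 89 are under 1000 nt. Among the genes outside the family, the 80 under 500 nt had median differences of -0.38, -0.22 and 0.41 in pairs 1, 2 and 3, and the 1414 of 4000 nt or more had 0.22, 0.09 and -0.17. The 18 genes outside the family that were both under 1000 nt and at 500 CPM or more had -0.17, -0.06 and 0.39, beside -0.59, -0.07 and 0.51 for the 43 members of the same kind. Within the family, pair 3 minus pair 1 had a Spearman rho of 0.00 with exon length, -0.01 with mean CPM, -0.03 with protein length, 0.20 with the number of introns and 0.35 with the number of small nucleolar RNA genes inside, over the 84 members, which share the same 6 libraries. The part of exon length in the family's pattern was not tested.

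**Figure D5:**
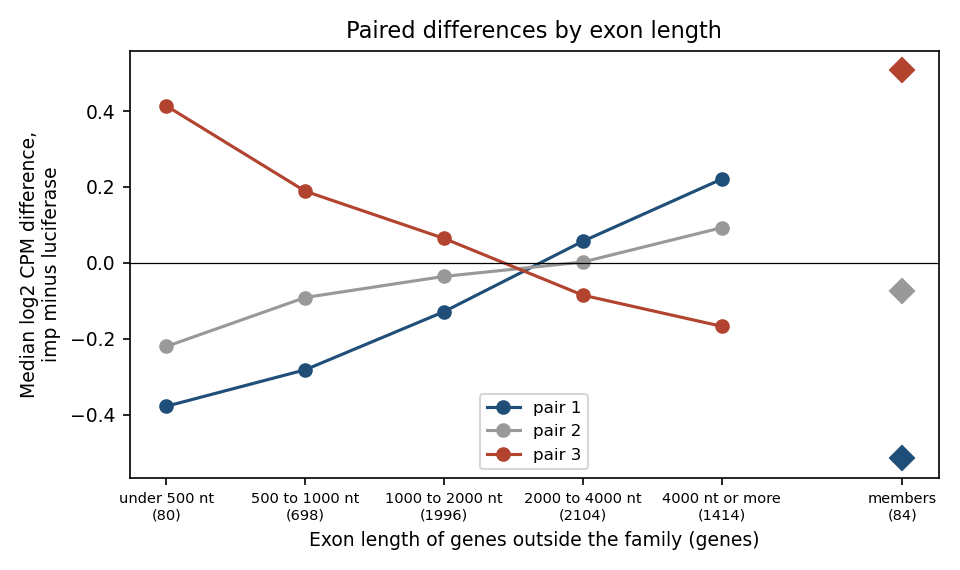
Median difference in log2 CPM, imp minus luciferase (y axis), of genes outside the family by exon length (x axis, with the number of genes), for pair 1 (dark blue), pair 2 (grey) and pair 3 (red), with the 84 members as diamonds at the right. Short genes lie on the same side as the members in pairs 1 and 3 and long genes on the other, and the members lie farther from 0 than each length class in those 2 pairs.

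Of the members, 28 host a total of 74 small nucleolar RNA genes, whose products guide the modification of ribosomal RNA, in their introns or exons by position in BDGP6. Pair 3 minus pair 1 had a median of 1.19 in these 28 and of 0.92 in the 56 tested members that host none. Among the hosts, RpL28, with 5 such genes, had 2.20 and RpL22, with 2, had 1.76, while RpS5a, with 14, had 0.89. RpL15 and RpL7-like set the low end of each class, at 0.31 and 0.05. By chromosome the medians ran from 0.92 on 2L to 1.17 on 3L, apart from the 1 member on chromosome 4 at 0.70.

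Related lists gave 0 calls at an adjusted p of 0.05. The 72 mitochondrial ribosomal protein genes, the most alike by function, had pair medians of -0.35, -0.19 and 0.20 and a median fitted change of -0.14, with 6 lower and 0 higher at an unadjusted p under 0.05 (backgrounds 1.26% and 1.62%). The 27 tested cytosolic translation factors had pair medians of -0.13, 0.01 and 0.20 and a median change of 0.04. Of 24 ribosome biogenesis genes, the members RpL24-like and RpL7-like among them, 20 had negative fitted changes, beside 3364 of all 6526 tested genes. The median of this list was -0.10, and RpL7-like had its highest value, 0.20. Fib, which encodes the rRNA methyltransferase fibrillarin, had the smallest p (-0.36 ± 0.16, unadjusted p = 0.0381, adjusted p = 0.999 in edgeR's test). The 8 RNA polymerase I genes had a median of -0.16.

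Regulators of growth were split, with 4 of 10 regulators of ribosomal protein genes and 8 of 18 genes of TOR signalling and translational control on the higher side. Among the former, Mnt, a repressor that competes with Myc for their shared partner, had a log2 fold change of 0.51 ± 0.18 and crp of 0.44 ± 0.15 (SE), where edgeR's test gave unadjusted p of 0.0123 and 0.0116 (adjusted p of 0.999 for both). The Myc gene dm had 0.30 ± 0.17. Among the latter, Pi3K92E, the catalytic subunit of the insulin-responsive PI3 kinase, had the smallest p (-0.59 ± 0.16, unadjusted p = 0.00292), and Thor, the 4E-BP that represses cap-dependent translation, had -0.28 ± 0.16. The median fitted changes of these lists were -0.01 and -0.02, beside -0.01 over all tested genes. Their pair medians were 0.24, 0.19 and -0.06 for the regulators and 0.13, -0.04 and -0.32 for the TOR list. In pairs 1 and 3 these had the opposite sign to the medians of the members.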

How the data were processed

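The authors mapped the reads of the 6 libraries to dm3 and counted those overlapping a single gene on the same strand. The deposited values are raw counts per gene, without normalization. Per the submitters' notes, CASAVA 1.8.2, BWA and DESeq were used, with other versions not given in the sources used here. A deposited table of the authors' DESeq comparison supplied gene symbols only, and its means, fold changes and p-values were not used. The count table held 1 row naming no gene, with 0 counts (0%), which was left out. The iCLIP, PAR-iCLIP and RIP-seq samples were not analysed here.

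Counts were fitted with edgeR 4.0.16 under R 4.3.3, using filterByExpr, TMM, the quasi-likelihood test and the pair as a block, with Benjamini-Hochberg adjustment over all 6526 tested genes at 0.05. Library totals ran from 1081882 to 5463535 counts. The SE of a fold change was taken from its size and the root of its F statistic. CPM are TMM-scaled, and pair differences used log2 CPM with a prior count of 2. The numbers pair the libraries: over all tested genes, deviations from group means correlated at 0.48, 0.36 and 0.30 in same-numbered libraries. In libraries of different number the correlation ran from -0.54 to 0.13. The members' median deviations were -0.05, -0.31 and 0.37 in imp replicates 1 to 3. In luciferase replicates 1 to 3 they were 0.42, -0.27 and -0.16, so the high libraries of the members differed in number. Replicates differed by more than sampling noise (chi-square per degree of freedom from 6.38 to 27.6). DESeq2 1.42.0, limma 3.58.1 (voom), other scalings and filters, and leaving out pairs were the alternatives. The fit was tested on simulated data. Shares and exact tests were computed in Python 3.11.15 with SciPy 1.17.1. Exon lengths and positions come from BDGP6, a later build than dm3 (84 members matched by identifier, 5 by symbol), and none was carried between builds.

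The members and lists were chosen with earlier results of these data known. Members named singly are RpS6 and RpL32, the 5 highest and 5 lowest per kb, the 5 smallest p in each direction, the 5 largest and 5 smallest F between pairs, duplicated genes, and the P stalk, 5S and ubiquitin-fusion members. RpL28 and RpS25 were named after their values were seen, and 1 member is not reported singly here. Of other lists, up to 3 genes with the smallest p could be named. Of the germline and the neuron and muscle marker lists, 1 and 2 genes were tested and 0 called.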

Additional observations from a re-analysis of the deposited data

Results flagged for a closer look

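The ribosomal protein share of counts moved in opposite directions in the pairs. Its log2 ratio, imp over luciferase, was -0.39 in pair 1 and 0.38 in pair 3, and the median log2 difference of the 84 tested members was -0.52 in pair 1 and 0.51 in pair 3. Each pair holds 1 library per treatment, so the difference between pairs was not tested.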

How the results depend on the processing

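Without a filter on low counts 4 genes were called between treatments and 5 of 89 ribosomal protein genes between pairs (background 5.34% of genes). DESeq2 called 1 gene between treatments, and an unblocked fit without imp dsRNA replicate 3 and luciferase dsRNA replicate 1, chosen after seeing the data, also called 1. Imp was among the genes called in these fits, with adjusted p of 2.98e-06, 0.00018 and 0.0384, and over all alternatives its log2 fold change ran from -1.49 to -1.02. Leaving out a pair gave 0 to 58 genes and 0 to 1 members called between treatments, and 0 to 34 members called between pairs. In each case the highest number came without pair 3, where the backgrounds were 0.878% of genes between treatments and 13.1% between pairs. The cause was not tested. Leaving out a pair gave a member median from -0.31 to 0.20 and a mean log2 ratio of the share from -0.25 to 0.14. Without the replicate block the member median was -0.05 and 0 members were called, and the block changed no call. The unblocked fit, chosen after seeing the data, gave a member median of -0.25 without imp replicate 3, 0.21 without luciferase replicate 1 and 0.00 without both. Other scalings, filters and prior counts, also tried after seeing the data for the pair medians, gave -0.53 to -0.44 in pair 1, -0.13 to -0.07 in pair 2 and 0.34 to 0.52 in pair 3. Scaling to the members' summed counts called 0 members, but it takes out the family's common shift by design and so cannot show one. At an unadjusted p under 0.05 in edgeR's test this scaling gave 2 members (background 0.444% of genes). Of 39 named members tested, 31 changed sign under at least 1 alternative, none of them while called, and RpS12 alone was called, without pair 3. Depth was lowest in imp replicate 2, where 1081882 counts set the limit for low members.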
